A study of Mus musculus with 6 samples.

Results

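The mitosis and G2/M genes are 60 genes of cell division, listed by function and not by their values: CDK1 and its cyclins, mitotic kinases, spindle checkpoint and centromere proteins, kinesins and cytokinesis factors. Of the 60, 59 had a probe set named for them alone and all 59 were tested, among 19847 genes in all. Ccnb1 was not analysed here, and Sgol1 was matched under its present symbol, Sgo1.

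A cell enters mitosis when CDK1, bound to a cyclin, is freed of its inhibitory phosphates by CDC25 phosphatases. Aurora and Polo kinases then build the spindle, kinetochores tie each chromosome to it, and the spindle checkpoint holds back the anaphase-promoting complex (APC/C) until every kinetochore is attached. Transcripts of most of these proteins rise late in the cell cycle. The MuvB complex with B-MYB and FOXM1 then activates their promoters, and the same genes are no longer repressed by its partner complexes. The level of these transcripts in a culture therefore depends in part on how many of its cells are dividing.

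Total RNA came from mouse leukemia cells named for MLL-AF10, a fusion of the histone methyltransferase gene MLL with AF10 that occurs in acute leukemia. The cells were grown with fetal bovine serum and medium conditioned by WEHI cells, and received either vehicle (3 arrays) or an IKK inhibitor at 0.5 µM (3 arrays). IKK is the kinase that releases NF-κB by marking its inhibitor IκB for destruction; the labels give neither the compound's name nor the time of exposure. All 6 arrays are of 1 cell line, and nothing in the labels says whether the replicates were separate cultures, so the spread behind each p-value may be technical only. In RNA from a whole culture, fewer cells in mitosis and less RNA per mitotic cell cannot be told apart.

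The arrays carried 35512 whole-transcript probe sets with deposited intensities on a linear scale. Array medians lay between 112 and 124, and no array stood apart: the correlation of log2 intensity over genes was 0.993 to 0.997 within a group and 0.988 to 0.991 between groups. Levels are compared only between arrays, for the same probe set or the same fixed set of them, because the brightness of different probe sets has no common scale. A gene was called when its adjusted p in limma's moderated test over all genes (Benjamini-Hochberg) was under 0.05, and fold changes are log2 values of inhibitor over vehicle.

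Mitotic transcripts were slightly lower with the inhibitor. Of the 59 members, 13 fell (22%), 1 rose, Cdc25b, and 45 were not called. Over all genes 13.9% were called, 6.75% lower and 7.1% higher. The median log2 fold change of the members was -0.15, a difference in intensity of -9.95%, against 0.0064 over all genes. Of the members, 55 had a log2 fold change below 0 (93.2%), where 48.1% of all genes did. In 35 members (59.3%) every inhibitor array lay below every vehicle array, which held for 17.2% of all genes; in 3, Cks2, Cdc25b and Mki67, every inhibitor array lay above, which held for 15.8% of all genes. The sizes were small: log2 fold changes ran from -0.42 to 0.24, no member changed by more than 1.5-fold, and the 95% interval excluded a 2-fold change for all 59.

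The direction was steadier than the calls. With 1 array left out at a time, the members' median stayed between -0.17 and -0.13, but the number of members called lower was 2, 1 and 1 without vehicle array 1, 2 and 3, and 2, 11 and 4 without inhibitor array 1, 2 and 3. Without vehicle array 1, 3.39% of members were called lower against 3.44% of all genes; the shares were 1.69% against 2% without vehicle array 2, 1.69% against 2.11% without vehicle array 3, and 3.39% against 2.25% without inhibitor array 1. They were 18.6% against 6.56% without inhibitor array 2 and 6.78% against 3.9% without inhibitor array 3. No member was called higher in any of these fits. Kif22 was the only member called whichever array was left out. With each array centred on its median log2 intensity, 6 members were called lower (10.2% against 5.92% of all genes) and none higher: Birc5, Cenpa, Cdca3, Kif4, Kif22 and Ect2.

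**Figure D1:**
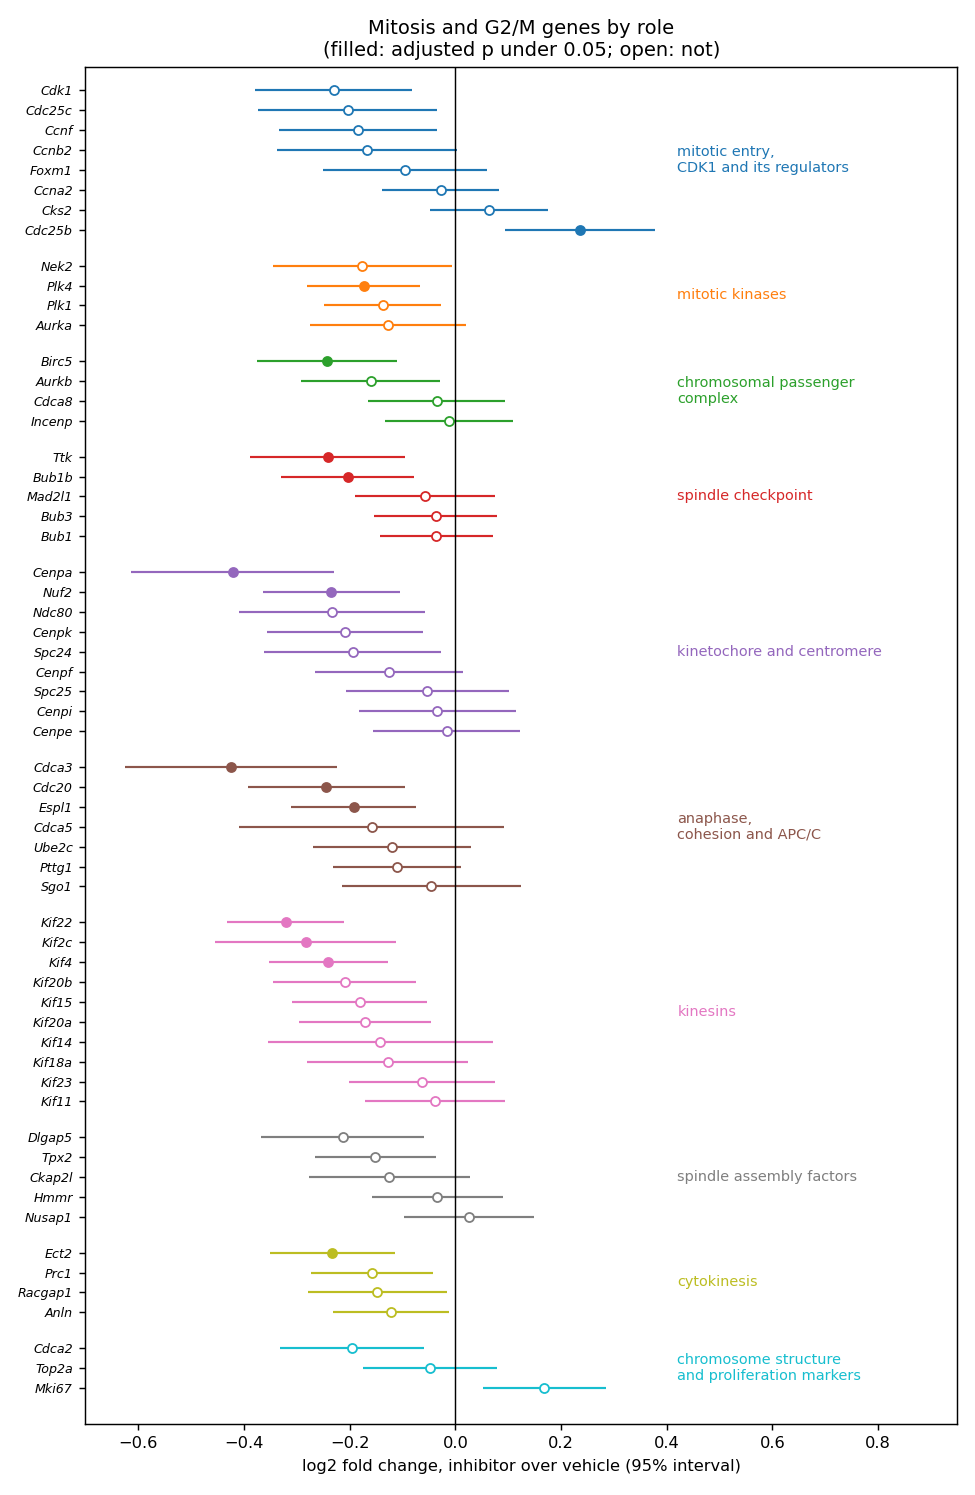
Log2 fold change of each of the 59 members (horizontal axis, inhibitor over vehicle) with its 95% interval from limma, grouped by role; filled points have an adjusted p under 0.05. The points of 55 members lie left of 0, and no interval reaches a 2-fold change.

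The promoters of the 4 called members that differed most are shown because late cell cycle promoters are known for a pair of short elements, the CCAAT box bound by NF-Y and the cell cycle genes homology region bound by MuvB. Each line gives the 150 bases before the annotated start in RefSeq (GRCm38.p6), outside the transcript, 5′ to 3′ along the gene's strand. Capitals mark CCAAT, which reads ATTGG when it lies on the other strand, and the homology region, searched as TTTGAA or TTCGAA on both strands.
Cdca3, chr6:124830026-124830175, plus strand: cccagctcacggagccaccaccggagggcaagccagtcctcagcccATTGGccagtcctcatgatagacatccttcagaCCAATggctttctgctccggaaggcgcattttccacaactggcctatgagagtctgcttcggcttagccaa
Cenpa, chr5:30666736-30666885, plus strand: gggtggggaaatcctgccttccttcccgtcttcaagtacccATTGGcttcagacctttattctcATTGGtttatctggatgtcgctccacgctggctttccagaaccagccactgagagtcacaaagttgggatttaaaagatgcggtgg
Kif22, chr7:127042421-127042570, minus strand: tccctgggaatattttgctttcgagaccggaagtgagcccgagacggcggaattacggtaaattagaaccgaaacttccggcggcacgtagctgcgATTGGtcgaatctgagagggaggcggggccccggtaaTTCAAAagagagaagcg
Kif2c, chr4:117178773-117178922, minus strand: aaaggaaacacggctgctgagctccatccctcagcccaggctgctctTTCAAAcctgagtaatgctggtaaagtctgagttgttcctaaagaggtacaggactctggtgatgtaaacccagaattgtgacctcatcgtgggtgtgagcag
Cdca3 held CCAAT on both strands, 104 and 71 bases before the start, and Cenpa held it at 109 and 86, each time on the other strand. Kif22 held CCAAT at 54 and TTTGAA at 17, and Kif2c held TTTGAA at 103, all on the other strand. In the longer window that the promoter table gives, 250 bases before the start to 50 after it, 54 promoters of 49 members were found. CCAAT stood in 41 of them (75.9%) against 37.4% of all 32851 promoters in the table, and TTTGAA or TTCGAA in 40 (74.1%) against 19.2%. Both stood in 34 (63%) against 7.52%. Among the 14 promoters of the 13 members that fell, 10 held CCAAT (71.4%), 11 held TTTGAA or TTCGAA (78.6%) and 10 held both (71.4%). A match is only these letters in this window, and the arrays measured no binding.

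Of the CDK1 module, which commits a cell to mitosis, none of 8 tested members fell and 1 rose in limma's test. Over all genes 6.75% fell and 7.1% rose. Of the 8, 4, the riser included, had an unadjusted p under 0.05. With an intensity trend and a robust prior in limma, Cdk1, Ccnf and Ccnb2 were called lower and Cdc25b higher. In that fit 11.2% of all genes were called lower and 9.97% higher. Cdk1, the kinase itself, read 2195, 2110 and 2189 on the vehicle arrays and 1944, 1890 and 1709 on the inhibitor arrays. Every inhibitor array lay below every vehicle array and the third was lowest, but the log2 fold change of -0.23 was not called (SE 0.06, adjusted p = 0.0562). Cdc25b, a phosphatase that activates CDK1 at the centrosome, read 279, 299 and 279 with vehicle and 320, 336 and 353 with the inhibitor. It rose by 0.24 on the log2 scale (SE 0.06, adjusted p = 0.0450) with no overlap between the groups. That call was lost whichever array was left out (adjusted p 0.0725 to 0.148) and with centred arrays (0.141). Cdc25c, a phosphatase of the same family, lay on the other side of 0, at -0.20 (adjusted p = 0.116). Cdc25a, of the same family but outside the members, fell by 0.25 in limma's test (adjusted p = 0.0453), with no overlap between the groups. The differences between these phosphatase genes were not tested.

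The cyclins, Cks2 and Foxm1 were not called. Ccnb2, a B-type cyclin, had a log2 fold change of -0.17, and Ccnf, the F-box cyclin of an SCF ubiquitin ligase, -0.18. In both, every inhibitor array lay below every vehicle array, as in 59.3% of the members and 17.2% of all genes. Ccna2, which spans S phase and G2, was at -0.03 (95% interval -0.14 to 0.08). Cks2, a small CDK-binding subunit, was at 0.06 with all inhibitor arrays above the vehicle arrays; its 3 probe sets were at 0.06, 0.13 and 0.06. Foxm1, the forkhead activator of late cell cycle genes, read 875, 847 and 912 with vehicle and 869, 836 and 763 with the inhibitor. The groups overlapped, and its log2 fold change of -0.10 was not called (95% interval -0.25 to 0.06). These 5 genes had adjusted p from 0.110 to 0.771.

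Of 4 mitotic kinases, Plk4, which starts centriole duplication, fell by 0.17 (SE 0.05, adjusted p = 0.0487). Its intensities were 1211, 1248 and 1209 against 1088, 1080 and 1085. The inhibitor arrays differed among themselves by far less than from the vehicle arrays, but the call was lost with any array left out (adjusted p 0.0751 to 0.163). Plk1, the main mitotic Polo kinase, read 1953, 2028 and 2031 with vehicle and 1789, 1831 and 1845 with the inhibitor. Its groups did not overlap, and its log2 fold change of -0.14 was not called (adjusted p = 0.108). Aurka, the centrosomal Aurora kinase, read 1248, 1380 and 1323 against 1165, 1179 and 1272. The third inhibitor array lay above the first vehicle array, and the log2 fold change of -0.13 was not called (adjusted p = 0.247). Nek2, which splits the centrosomes, was at -0.18 (adjusted p = 0.168).

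The chromosomal passenger complex corrects faulty attachments and later steers cytokinesis. Birc5, which encodes its subunit survivin, read 812, 812 and 873 with vehicle and 708, 676 and 726 with the inhibitor. It fell by 0.24 (SE 0.06, adjusted p = 0.0327) with no overlap. Without any 1 of the arrays its adjusted p was 0.0550 to 0.117, so the call rested on all 6. Aurkb, the kinase of the complex, read 2540, 2373 and 2495 against 2255, 2264 and 2108, and its log2 fold change of -0.16 was not called (adjusted p = 0.111), although the groups did not overlap. The scaffold Incenp and the borealin gene Cdca8 were at -0.01 and -0.04, with 95% intervals of -0.13 to 0.11 and -0.16 to 0.09.

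In the spindle checkpoint, 2 of 5 genes fell (40%, against 6.75% of all genes). Ttk, the kinase MPS1 that starts checkpoint signalling, fell by 0.24 (adjusted p = 0.0454), from 430, 451 and 448 to 372, 400 and 353. Bub1b, the BUBR1 subunit of the complex that blocks the APC/C, fell by 0.20 (adjusted p = 0.0487), from 1172, 1225 and 1221 to 1043, 1092 and 1007. In both the second inhibitor array lay nearest to vehicle, and both stayed called only without that array; the highest adjusted p with another array left out was 0.149 for Ttk and 0.158 for Bub1b. Bub1, the kinase that marks the inner centromere, read 2066, 2087 and 2137 against 2041, 2062 and 2033, on all 3 inhibitor arrays just below the lowest vehicle array, and its log2 fold change of -0.04 was not called (95% interval -0.14 to 0.07). Bub3 and Mad2l1, partners in the same inhibitory complex, were at -0.04 and -0.06 and were not called.

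At the kinetochore and centromere, 2 of 9 genes fell (22.2%, against 6.75% of all genes). All 9 log2 fold changes were below 0, as were those of 93.2% of the members and 48.1% of all genes. Cenpa, the histone H3 variant that marks the centromere, read 1135, 1096 and 1144 with vehicle and 851, 926 and 752 with the inhibitor. It fell by 0.42 (SE 0.08, adjusted p = 0.0180), its intensity fell by 25.3%, and its inhibitor arrays spread more (SD 87.5) than its vehicle arrays (SD 25.3, n = 3 each). The call was lost without vehicle array 1, 2 or 3 or inhibitor array 1, with an adjusted p of at most 0.0709. Nuf2, a subunit of the 4-member NDC80 complex that grips microtubules, fell by 0.23 (adjusted p = 0.0342), from 1105, 1057 and 1124 to 943, 962 and 889; it stayed called only without inhibitor array 2 (adjusted p up to 0.124 otherwise). Its partners Ndc80, Spc24 and Spc25 were at -0.23, -0.19 and -0.05 and were not called (adjusted p = 0.0891, 0.129 and 0.674). Cenpk was at -0.21, Cenpf, a kinetochore protein of late G2, at -0.13, Cenpi at -0.03 and the motor gene Cenpe at -0.02.

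**Figure D2:**
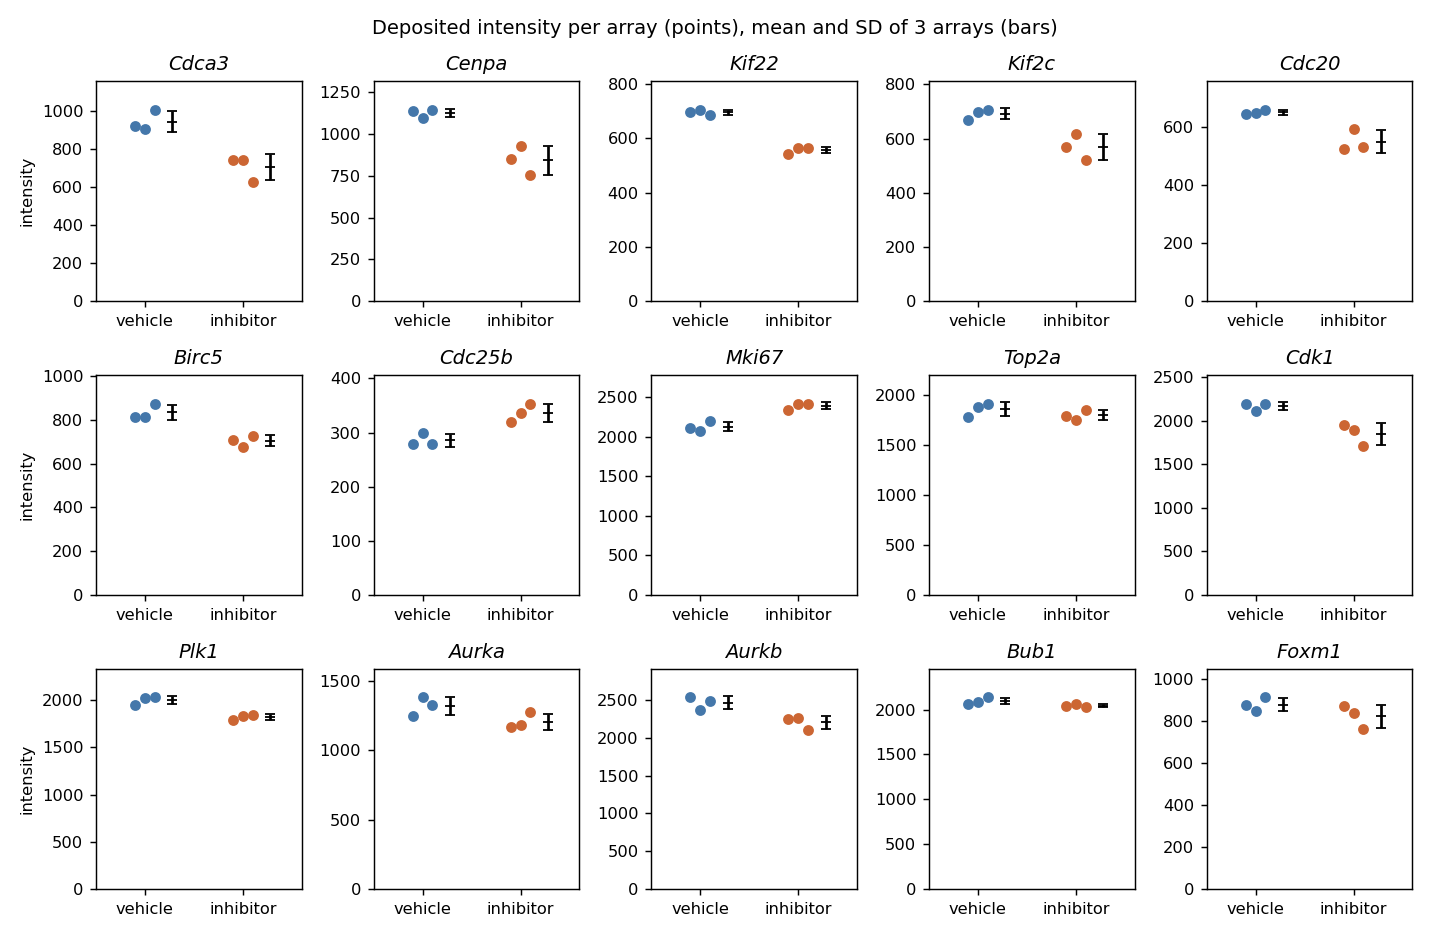
Deposited intensity (vertical axes, from 0) of the 15 members chosen by rule, 1 point per array, with the mean and SD of the 3 arrays of each group. Cdca3, Cenpa and Kif22 show a gap between the groups, Bub1 and Top2a nearly none, and Cdc25b and Mki67 sit higher with the inhibitor.

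Of 7 genes of anaphase, cohesion and the APC/C, 3 fell (42.9%, against 6.75% of all genes). Cdca3, a trigger of mitotic entry that works in an SCF ubiquitin ligase and is itself destroyed through the APC/C, read 919, 903 and 1005 with vehicle and 744, 742 and 626 with the inhibitor. It fell by 0.42 (SE 0.08, adjusted p = 0.0202) and its intensity fell by 25.5%, the largest difference among the members; without vehicle array 1, 2 or 3 the call was lost (adjusted p up to 0.0766). Cdc20, the APC/C activator that the checkpoint holds, read 642, 646 and 657 against 524, 593 and 528. It fell by 0.24 (SE 0.06, adjusted p = 0.0457), with the second inhibitor array nearest to vehicle. Espl1, the protease separase that cuts cohesin, fell by 0.19 (adjusted p = 0.0481), from 371, 384 and 370 to 327, 339 and 318. Cdc20 and Espl1 stayed called only without inhibitor array 2, with adjusted p up to 0.148 and 0.161 otherwise. The securin gene Pttg1 was at -0.11, Ube2c, the ubiquitin-conjugating enzyme of the APC/C, at -0.12, the sororin gene Cdca5 at -0.16 and the shugoshin gene Sgo1, which guards centromeric cohesion, at -0.05; none was called. Cdca5, which read 658, 750 and 558 on the inhibitor arrays, had the widest standard error of the 7 on the log2 scale (0.11).

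Among 10 kinesins, the motors of the spindle, 3 fell (30%, against 6.75% of all genes). All 10 log2 fold changes were below 0, as were those of 93.2% of the members and 48.1% of all genes. Kif22, the chromokinesin KID that pushes chromosome arms outward, read 697, 705 and 687 with vehicle and 543, 565 and 564 with the inhibitor. It fell by 0.32 (SE 0.05, adjusted p = 0.00672), and its intensity fell by 19.9%. The gap between the groups was several times the spread within either (SD 9.22 and 12.3), and its adjusted p stayed between 0.0148 and 0.0385 with any array left out. Kif2c, the microtubule depolymerase MCAK, read 668, 699 and 706 against 568, 618 and 521 and fell by 0.28 (SE 0.07, adjusted p = 0.0453); it stayed called only without inhibitor array 2 (adjusted p up to 0.143). Kif4, a chromokinesin of the central spindle, fell by 0.24 (adjusted p = 0.0196), from 413, 424 and 438 to 361, 357 and 360, and lost its call without vehicle array 2 or 3 or inhibitor array 1 (adjusted p up to 0.0846).

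The other 7 kinesins were not called. Kif20b, a motor of cytokinesis, was at -0.21 (adjusted p = 0.0544) with no overlap between groups. Kif15, a partner motor of the bipolar spindle, Kif20a, which carries the passenger complex to the midzone, Kif14 and Kif18a were at -0.18, -0.17, -0.14 and -0.13. Kif11, the Eg5 motor that pushes the poles apart, was at -0.04 and Kif23, a subunit of centralspindlin, at -0.06. A second, dim probe set of Kif14 was at -0.14 too, with a 95% interval of -0.52 to 0.25.

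None of 5 spindle assembly factors was called by limma, although 2 had an unadjusted p under 0.05; with an intensity trend and a robust prior in the same tool, Tpx2 and Dlgap5 were called lower. Tpx2, which activates Aurora A on the spindle, was at -0.15 (adjusted p = 0.0880), and Dlgap5, which stabilizes kinetochore fibres, at -0.21 (adjusted p = 0.0786). Ckap2l was at -0.13, Hmmr at -0.03 and Nusap1, a microtubule bundler, at 0.03. Nusap1 was at -0.01 with centred arrays.

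In all 4 cytokinesis genes, every inhibitor array lay below every vehicle array, as in 59.3% of the members and 17.2% of all genes. Ect2, the exchange factor that switches on RhoA at the cleavage plane, fell by 0.23 (SE 0.05, adjusted p = 0.0253), from 1283, 1340 and 1289 to 1138, 1117 and 1074. It stayed called only without inhibitor array 2 (adjusted p up to 0.101 otherwise). Prc1, which bundles midzone microtubules, Racgap1, the other subunit of centralspindlin, and the ring scaffold Anln were at -0.16, -0.15 and -0.12 and were not called (adjusted p = 0.0796, 0.142 and 0.145).

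Neither of the 2 genes often used as proliferation markers was called. Mki67, which encodes the Ki-67 protein that coats mitotic chromosomes, read 2110, 2075 and 2195 with vehicle and 2338, 2416 and 2416 with the inhibitor. Every inhibitor array lay above every vehicle array, but the log2 fold change of 0.17 was not called (95% interval 0.05 to 0.28, adjusted p = 0.0676). Top2a, the topoisomerase that untangles sister chromatids, read 1775, 1883 and 1913 against 1789, 1748 and 1849. Its groups overlapped and its log2 fold change was -0.05 (95% interval -0.17 to 0.08). A second, dim probe set of Top2a was at -0.31 and was not called. Cdca2, a phosphatase-targeting subunit on chromatin, was at -0.20 (adjusted p = 0.0702). None of these 3 genes was called by limma, with 2 at an unadjusted p under 0.05, Mki67 and Cdca2; both were called with the intensity trend and robust prior.

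**Figure D3:**
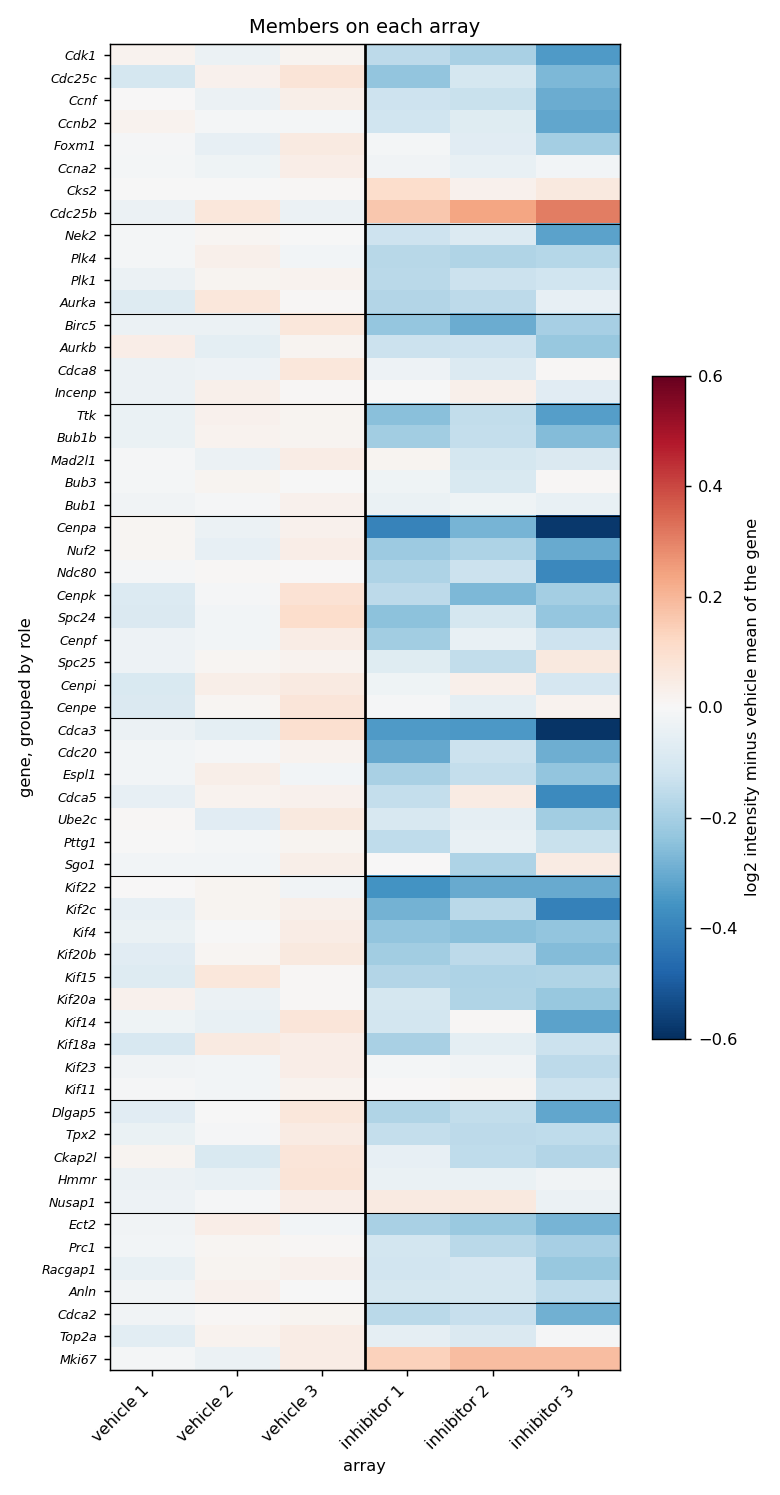
Log2 intensity of each member on each array minus the gene's mean over the vehicle arrays (colour, blue lower and red higher), with genes in rows by role and arrays in columns. The inhibitor columns are mostly blue and inhibitor array 3 is the deepest, while Cdc25b and Mki67 are red.

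The inhibitor arrays were not equally low. The median over members of log2 intensity minus the vehicle mean was -0.13, -0.12 and -0.20 on inhibitor arrays 1, 2 and 3, and -0.02, -0.0024 and 0.03 on the vehicle arrays. Over all genes the same median on the inhibitor arrays was 0.03, -0.04 and 0.03, so array 3 was lowest for the members without being low over all genes.

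**Figure D4:**
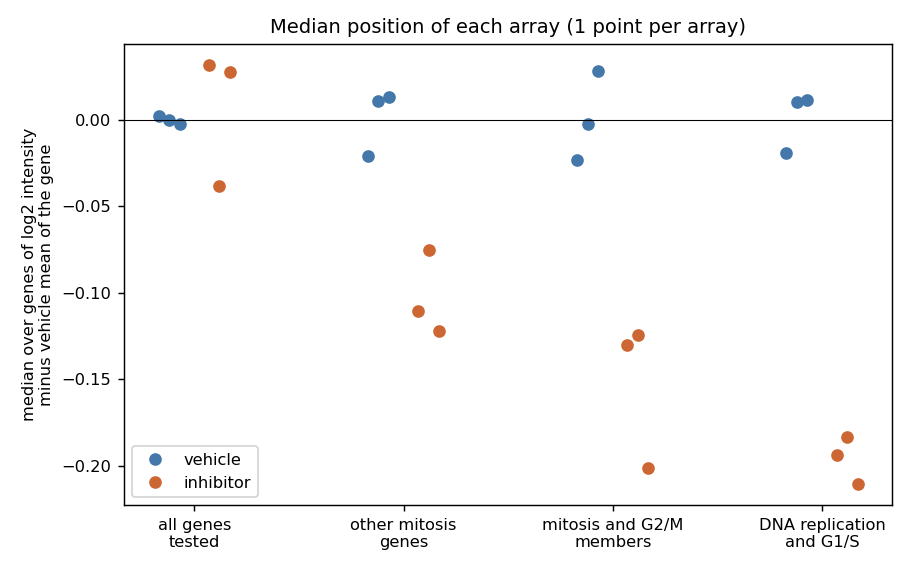
Median over genes of log2 intensity minus each gene's vehicle mean (vertical axis), 1 point per array, for all genes, other mitosis genes, the members and the DNA replication genes. For each of the 3 lists all inhibitor arrays lie below all vehicle arrays, and for the members array 3 is lowest, at -0.20.

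Mitosis genes outside the 60 were listed by function too. Of 127 such genes 124 were tested. Of these, 29 fell (23.4%, against 6.75% of all genes) and 3 rose (2.42%, against 7.1% of all genes). The median log2 fold change was -0.11. The condensins, which compact chromosomes, had 2 of 8 lower (25%), Ncapg (-0.24) and Ncapd2 (-0.19). Of 15 genes of the APC/C and its inhibitors 3 fell (20%), Cdc26 (-0.42), Cdc23 (-0.26) and Anapc5 (-0.19). Fzr1, the activator of late mitosis and G1, was at -0.17 and was not called. None of 11 genes of cohesin and its control was called by limma, with 2 at an unadjusted p under 0.05. Of 28 further kinetochore genes 8 fell (28.6%), among them Cenph (-0.38), Cenpm (-0.36), Pmf1 (-0.32) and Nsl1 (-0.31). The last pair belong to the MIS12 complex, which anchors the NDC80 complex. Of 24 spindle and centrosome genes 6 fell (25%), among them Haus1 (-0.36), Cep55 (-0.31), Troap (-0.26) and Spag5 (-0.25). Kif3b, a transport kinesin, rose by 0.30.

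The switches of mitotic entry and exit outside the 60 had 7 of 19 lower (36.8%) and 1 higher (5.26%), against 6.75% and 7.1% of all genes. Wee1 and Pkmyt1, the kinases that hold CDK1 inactive, fell by 0.27 and 0.32. Cdc25a, of the phosphatases that act the other way, fell by 0.25. Wee1 read 1403, 1350 and 1442 with vehicle and 1159, 1216 and 1112 with the inhibitor. Cks1b, a CDK subunit, and Haspin, the kinase that marks histone H3 at centromeres, fell by 0.28 and 0.26. Lats2, a kinase of the Hippo pathway, rose by 0.52, from 335, 334 and 362 to 472, 519 and 489.

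Of 19 MuvB, B-MYB and E2F genes, which control the timing of these transcripts, 3 fell and 1 rose. These were 15.8% and 5.26% of the list, against 6.75% and 7.1% of all genes. The list as a whole differed little, with a median log2 fold change of -0.03 and 57.9% below 0, against 48.1% of all genes. Mybl2, which encodes B-MYB, read 1396, 1490 and 1458 with vehicle and 1030, 1098 and 994 with the inhibitor and fell by 0.48, more than any member. E2f6 and E2f4, E2F members that mostly repress, fell by 0.35 and 0.23. Rb1, the retinoblastoma repressor of E2F, rose by 0.21, from 967, 961 and 941 to 1126, 1088 and 1107. The MuvB subunit gene Lin9 was at -0.20 and E2f1 at 0.01, neither called; E2f1 was at -0.03 with centred arrays.

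Of 52 DNA replication and G1/S genes tested, 24 fell (46.2%, against 6.75% of all genes), none rose (against 7.1%) and 28 were not called, with a median of -0.19. Pold2, a subunit of DNA polymerase delta, fell by 0.41, from 1768, 1768 and 1790 to 1371, 1374 and 1260. Orc2, of the origin recognition complex, fell by 0.30, Fen1, which trims Okazaki fragments, by 0.34, and Gins3, of the replicative helicase, by 0.29. The difference between this list and the members was not tested. Of 27 called genes outside the members that were named by rule, 8 stayed called whichever array was left out. These were Mybl2, Pmf1, Nsl1, Lats2, Pold2, Orc2, Fen1 and Gins3. Ncapd2, Anapc5 and Kif3b were called in none of those fits, and these 3 and Rb1 lost their call with centred arrays. With 1 array left out, the other mitosis genes called lower were fewest without vehicle array 3, at 3 (2.42% against 2.11% of all genes), and most without inhibitor array 2, at 26 (21% against 6.56%). For the replication genes the same 2 fits gave 4 (7.69%) and 20 (38.5%). Without vehicle array 1 or 2 or inhibitor array 1 or 3, the other mitosis genes called lower were 10, 4, 5 and 9 (8.06%, 3.23%, 4.03% and 7.26%) and the replication genes 9, 5, 9 and 15 (17.3%, 9.62%, 17.3% and 28.8%), against 3.44%, 2%, 2.25% and 3.9% of all genes.

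**Figure D5:**
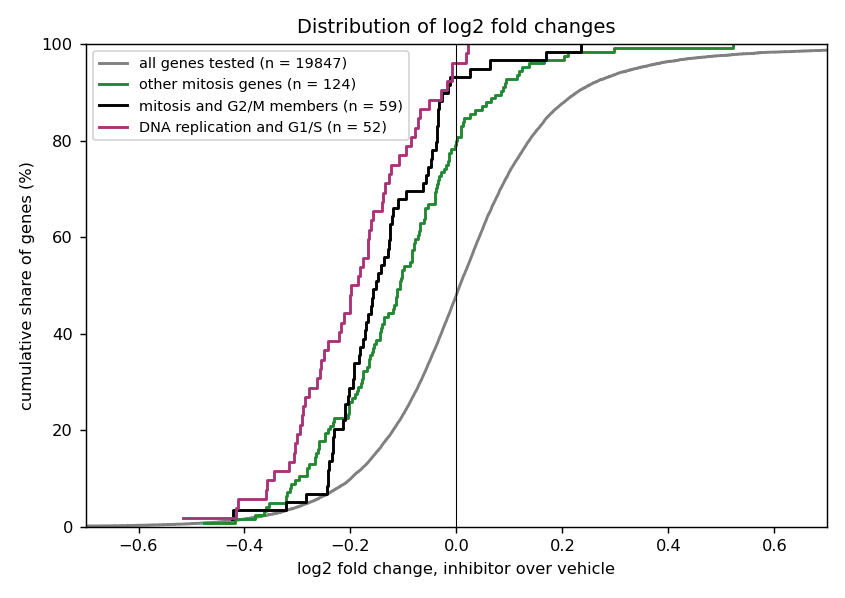
Cumulative share of genes (vertical axis, %) by log2 fold change of inhibitor over vehicle (horizontal axis, cut at -0.7 and 0.7) for all 19847 genes tested, 124 other mitosis genes, the 59 members and 52 replication genes. The 3 lists lie left of all genes, with medians of -0.11, -0.15 and -0.19.

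Myeloid markers moved between the same arrays. All 10 monocyte and macrophage markers listed, such as Csf1r and Adgre1, rose, with a median log2 fold change of 1.33; their summed intensity was 10200 to 10600 on the vehicle arrays and 18900 to 20100 on the inhibitor arrays. Of 8 granulocyte-monocyte progenitor markers, such as Mpo and Kit, 6 fell, with a median of -0.29 and sums of 19400 to 20100 against 16500 to 17000. Each sum is over the same probe sets on every array and is weighted towards the brightest of them. None of 5 T cell, 4 B cell, 2 erythroid and 5 stromal markers was called by limma, with 0, 1, 0 and 1 at an unadjusted p under 0.05. Their sums on vehicle and inhibitor arrays were 509 to 611 and 477 to 584 for T cells, 406 to 466 and 426 to 474 for B cells, 268 to 298 and 256 to 286 for erythroid cells, and 727 to 847 and 703 to 783 for stromal cells. No marker was at the floor on every array, and the deposited values come with no detection call that would separate a low level from background. The part of the myeloid markers in the members' result was not tested.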

How the data were processed

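Biotin-labelled whole-transcript target from 6 samples (3 vehicle, 3 inhibitor) was read on Affymetrix arrays. The submitters' processing notes name Affymetrix Expression Console as the program with which the authors made the deposited intensity values. Its version is not given in the sources used here, nor is the summarization or any normalization. Values ran from 0.71 to 8185.74; those under 16 (5.94%) were set to 16, which understates changes of dim genes, and log2 was taken with no further scaling.

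Of 35512 probe sets, 21789 had 1 gene symbol in the platform annotation, 1621 had several and 12102 were unlisted; the last 2 kinds were left out. Symbols were updated by Entrez number (21698 matched). Where a gene had several, its brightest probe set by mean was used; 91 of 19938 genes were at the floor throughout and were not tested. limma 3.58.1 (R 4.3.3; lmFit, eBayes, 2-sided, no covariates) was fitted over all genes and was tested on simulated data. Precision is limited by 3 arrays per group; arrays have no read depth.

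The members, marker and pathway lists were chosen with earlier results of these data known, so no list has a p-value. Values on every array are given for the called members with the 6 largest changes in each direction and for Mki67, Top2a, Cdk1, Plk1, Aurka, Aurkb, Birc5, Bub1, Cdc20 and Foxm1; those of Plk4, Ttk, Bub1b, Nuf2, Espl1, Kif4, Ect2, Cdca5 and of genes outside the members were added after their values were seen. Outside the members, up to 4 called genes per list and direction are named, smallest p first, with E2f1, Mybl2, Lin9, Wee1, Fzr1 and Rb1 whether called or not. Cdc25a, Cdkn1c, Cdkn2a, Cdkn2b and Cdkn2d were named after their values were seen. Promoters are RefSeq's. Alternatives covered the replicate block, quantile normalization, median centring, floors of 1 and 64, log2 of intensity plus 16, leaving out the dimmest 25% of genes, averaging probe sets, an intensity trend with a robust prior, a threshold of 0.01, and leaving out each array.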

Additional observations from a re-analysis of the deposited data

How the results depend on the processing

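Quantile normalization, a floor of 1, log2 of intensity plus 16 and averaged probe sets left the counts of members, other mitosis genes, replication genes and all genes called within 1.5 times those reported. With centred arrays, 6 members were called lower and 0 higher, 1 other mitosis gene was called higher, and the medians moved to -0.19 for members, -0.23 for replication genes and -0.14 for other mitosis genes, with that of all genes at -0.03. More calls were made with a floor of 64 (21 members lower, 2 higher, 5 other mitosis genes higher), without the dimmest 25% of genes (22, 2 and 5) and with the intensity trend and robust prior (30, 2 and 5, with 38 replication genes lower and 4199 of all genes called); the first 2 test fewer genes. Of members, 35.6%, 37.3% and 50.8% were called lower in these fits, in that order. Of all genes, 10.6%, 12.1% and 11.2% were called lower in them and 9.69%, 10.8% and 9.97% higher. The trend fit newly called 18 members. They were Ccnb2, Ccnf, Cdk1, Plk1, Nek2, Aurkb, Cenpk, Ndc80, Kif15, Kif20a, Kif20b, Tpx2, Dlgap5, Prc1, Anln, Racgap1, Mki67 and Cdca2, all lower except Mki67. At an adjusted p of 0.01, 1 member was lower (1.69% against 1.62% of all genes) and 0 higher. That threshold left 3 other mitosis genes lower and 1 higher, 4 replication genes lower and 984 of all genes called. Deviations of same-numbered arrays from their group means correlated at 0.24, 0.13 and -0.0956, and those of differently numbered arrays at -0.29 to 0.18. Whether same-numbered arrays belong together cannot be told from these values. With the replicate number as a block, 2 members were called lower (Cenpa and Kif22; 3.39% against 3.43% of all genes) and 0 higher, 7 other mitosis genes lower, 9 replication genes lower and 1679 of all genes in either direction. With 1 array left out, members lower were 1 to 11 and higher 0, other mitosis genes lower 3 to 26 and higher 1 to 2, replication genes lower 4 to 20 and higher 0, and all genes called 1184 to 2812; medians ran from -0.17 to -0.13 for members, -0.13 to -0.09 for other mitosis genes and -0.21 to -0.18 for replication genes. These fits have fewer arrays; otherwise the cause was not tested. Signs turned only for values near 0: Nusap1 and E2f1 with centred arrays (-0.01 and -0.0275), and with 1 array left out Cenpe (-0.059 to 0.0202), Cenpi (-0.0786 to 0.0006), Hmmr (-0.0551 to 0.0035), Incenp (-0.0338 to 0.0149), Kif11 (-0.0632 to 0.0060), Sgo1 (-0.0921 to 0.0247) and E2f1 (-0.0089 to 0.0373). Without detection calls, the limit set by background is unknown.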

Other observations

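Of 9 CDK inhibitor and p53 pathway genes listed, 7 were tested: genes of CDK inhibitors, which slow the cycle, and Mdm2, the ubiquitin ligase that opposes p53. Cdkn1a and Trp53 were not analysed here. Cdkn1c, Cdkn2a and Cdkn2b had vehicle means of only 117, 120 and 136, and no detection call separates such levels from background. None was called by limma, with 2 at an unadjusted p under 0.05. All 7 log2 fold changes were above 0, with a median of 0.09, while 48.1% of all genes lay below 0. In 2 of the 7, Cdkn2a and Cdkn2d, every inhibitor array lay above every vehicle array, which held for 15.8% of all genes. Cdkn2d had means of 425 with vehicle and 490 with the inhibitor, a log2 fold change of 0.20 (limma, adjusted p = 0.137).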
